A study of Mus musculus with 12 samples.

Results

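The 9 genes described here encode the Id proteins and the core of the BMP-SMAD pathway: Id1, Id2, Id3, Id4, Smad6, Smad7, Bambi, Smad1 and Smad5. They were picked by gene symbol from the 27503 genes of the deposited table, and all 9 were found. The choice was not blind to the data: Id1 and Id3 were known to be lower with IFNα in the wild-type cells, and the remaining genes were added to see how far that extended. The values of Id1 and Id3 in that comparison, and in every comparison that shares its libraries, are therefore given as a description. Earlier results of these data were known at the choice, so their values in the mutant are a description too. Of the 9 genes, 8 passed the filter on low counts and were among the 17590 genes tested. Id4 did not: it had 16 counts over the 12 libraries together, with 8 in mutant control 2 and 4 each in wild-type IFNα 1 and 3, and the other 9 libraries were at 0.

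The cells were B16F10, a transplantable mouse melanoma line. They carried either wild-type IRF7 or IRF7 C435A, a form in which a cysteine is replaced by alanine, and each line was sequenced as a control and after stimulation with interferon alpha (IFNα). Among the transcription factors of the type I interferon response, IRF7 turns on the interferon genes, and the title of the series ties its S-nitrosylation, a modification of cysteines by nitric oxide, to NOS1. This gives 4 groups of 3 libraries: the control and IFNα groups of the wild type, and those of the mutant. The labels give no dose or time, do not say how the mutant was made or whether it is 1 clone, and do not say that the libraries of a group come from different cultures. A p-value here therefore reflects only how these libraries spread, which may be technical.

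Bone morphogenetic proteins (BMPs) bind paired serine/threonine kinase receptors, which phosphorylate SMAD1, SMAD5 and SMAD9. With SMAD4 these enter the nucleus and switch on a small set of direct targets, among them the Id genes and the genes of the pathway's own brakes, SMAD6, SMAD7 and the decoy receptor BAMBI. Id proteins are helix-loop-helix proteins that cannot bind DNA themselves. They pair with E proteins and other helix-loop-helix factors and keep them off E-box DNA, and in many tumours, melanoma included, they are studied for their part in holding cells in an undifferentiated, dividing state.

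Library totals lay between 60511573 and 75927461 counts. Irf7 itself was at 12.3 ± 0.611 FPKM (SD, n = 3) in the wild-type control and at 4.87 ± 0.392 FPKM in the mutant control, a log2 fold change of -1.23 ± 0.169 (SE, edgeR adjusted p = 0.0057); gene counts cannot show the amino acid change. With IFNα it was at 9.05 ± 0.734 FPKM in the wild type, below every control (-0.45 ± 0.166, adjusted p = 0.798), and at 5.52 ± 1.48 FPKM in the mutant (0.16 ± 0.167, adjusted p = 0.791). Irf1, an interferon-inducible gene, was at 8.28 ± 0.755 and 13.7 ± 1.92 FPKM in wild-type control and IFNα (log2 fold change 0.71, adjusted p = 0.0202), and at 10.5 ± 0.756 and 17.0 ± 0.477 FPKM in the mutant (0.68, adjusted p = 0.0655). All 7 melanoma markers were above 0 in every library. Transcripts of lung epithelium, which a melanoma line should not hold, were present in 8 libraries: wild-type control 1, all wild-type IFNα, all mutant control and mutant IFNα 3. Their 11 markers summed to between 47.6 and 70.2 CPM (counts scaled to library size) there, with 10 or 11 above 0, and to between 0.833 and 1.08 CPM in the other 4 libraries, where Sftpb, Sftpa1, Sftpd and Cldn18 were at 0. Endothelial markers split the same way: 10 to 12 of 12 were above 0 in the 8 libraries and 4 to 6 of 12 in the 4, where Cdh5, Tek, Tie1, Emcn, Cldn5 and Sox17 were all at 0. The Id1, Id2, Id3 and Smad6 values within the 8 libraries are given after those of all 12.

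Promoter sequence was available from RefSeq for 6 of the 9 genes, but not for Id1, Smad7 or Bambi. There were 8 windows, each from 250 bases before to 50 after an annotated start, build GRCm38.p6. Shown are 2 stretches, each with a short SMAD motif in a gene whose IFNα libraries lay below the controls in the wild type. A link between motif and IFNα was not tested. The Smad6 stretch is chr9:64022056-64022309 on the minus strand and ends 4 bases into the transcript. It holds GTCTAGAC, the palindromic SMAD box, whose first base is at -4 from the start, so that the motif spans the start itself. Only 0.213% of the 32851 windows hold that motif on either strand. The Id2 stretch is chr12:25096254-25096342 on the minus strand and stops before an exon of another Id2 transcript. It holds GGCGCC, a GC-rich SMAD box, with its first base at -231, and 11.9% of all windows hold that motif. Both are written 5′ to 3′ with the motif in capitals.
Smad6: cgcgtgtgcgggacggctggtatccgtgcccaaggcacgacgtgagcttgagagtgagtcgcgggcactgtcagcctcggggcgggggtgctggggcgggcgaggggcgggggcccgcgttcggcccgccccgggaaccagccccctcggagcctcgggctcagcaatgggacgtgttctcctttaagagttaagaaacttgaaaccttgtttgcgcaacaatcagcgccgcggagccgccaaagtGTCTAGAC
Id2: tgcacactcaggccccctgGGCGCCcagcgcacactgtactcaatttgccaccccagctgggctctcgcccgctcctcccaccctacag

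The other windows were searched on both strands for the same letters, and all windows for the further motifs named here. GGCGCC was also found in the windows of Id4 and Smad5 (2 overlapping windows that show the same stretch). GCCGNCGC, a BMP-responsive SMAD motif held by 9.76% of all windows, was found in those of Id4 and Smad5. The IFNα libraries of Smad5 overlapped its controls in both lines. CANNTG, the E-box, was found in windows of Id2, Smad5 and Smad6 and in 72.3% of all windows. GAAANNGAA, the core of the interferon-stimulated response element, was in none of the 8 windows, against 8.56% of all windows. TTCNNNGAA, the GAS (gamma-activated site) motif, was also in none of the 8, against 8.3% of all windows. The Id3 and Smad1 windows held none of the 3 SMAD motifs. All 250 bases before the start in the Id3 window, and 90 of those in the Smad1 window, lie in an annotated exon of the same gene. The Id3 window therefore holds no sequence upstream of that exon. A match is a run of letters in a short window and not a measured site, and no match speaks only of that window.

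The Id genes were among the more abundant transcripts of these cells. FPKM, fragments scaled by transcript length and library size, allow levels to be compared between genes as far as the lengths used are right. In the wild-type control Id3 stood at 155 ± 22.4 FPKM, rank 496 of the 17590 genes tested, Id2 at 89.5 ± 16.4 FPKM (rank 790) and Id1 at 40.1 ± 3.00 FPKM (rank 1560). Neighbours in this order did not overlap: each library of Id3 lay above each of Id2, and each of Id2 above each of Id1. The feedback genes were lower: Bambi at 8.72 ± 1.01 FPKM and Smad6 at 7.35 ± 0.73 FPKM, whose libraries overlapped, and Smad7 at 0.644 ± 0.142 FPKM. Of the signal transducers, Smad5 was at 1.83 ± 0.256 FPKM and Smad1 at 0.392 ± 0.0847 FPKM. The libraries of Smad7 and Smad1 did not overlap in the wild-type control, but they did with IFNα.

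Id1 (ENSMUSG00000042745, deposited as chromosome 2, 152578171 to 152579330) was at 36.6, 41.7 and 41.9 FPKM in the wild-type controls and at 17.8, 19.4 and 16.4 FPKM with IFNα. The IFNα libraries lay close together and below every control. The log2 fold change was -1.17 ± 0.124 (SE, 95% interval -1.44 to -0.91), which leaves 44.3% of the control level. In the mutant Id1 was at 31.5, 33.7 and 32.7 FPKM without IFNα and at 23.0, 26.7 and 30.0 FPKM with it. These groups did not overlap either, but the gap between the lowest control and the highest IFNα library was small. The change in the mutant was -0.32 ± 0.123 (95% interval -0.58 to -0.06), or 80.2% of the control level. It did not pass the test over all genes (edgeR adjusted p = 0.427). In bulk RNA, a lower level in each cell and fewer cells that hold the transcript cannot be told apart.

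Id3 (ENSMUSG00000007872, deposited as chromosome 4, 135870808 to 135872703) showed the same separation. It was at 130, 164 and 172 FPKM in the wild-type controls and at 75.4, 81.2 and 75.1 FPKM with IFNα, again without overlap. The log2 fold change was -1.01 ± 0.121 (95% interval -1.27 to -0.76). In the mutant it was at 145, 147 and 163 FPKM in the controls and at 109, 123 and 102 FPKM with IFNα, a clear gap between groups. That change was -0.47 ± 0.12 (95% interval -0.73 to -0.21), which leaves 72.2% of the control level, and it did not pass (adjusted p = 0.282). DESeq2 did call it.

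Id2 (ENSMUSG00000020644, deposited as chromosome 12, 25143798 to 25147139) lay lower with IFNα in both lines. In the wild type it was at 108, 81.0 and 79.2 FPKM in the controls, of which the first stood well above the others, and at 59.3, 65.1 and 50.4 FPKM with IFNα. In the mutant it was at 72.3, 76.5 and 68.6 FPKM in the controls and at 46.2, 45.7 and 60.4 FPKM with IFNα. The groups did not overlap in either line. The log2 fold changes were -0.64 ± 0.167 in the wild type (95% interval -1.002 to -0.28, adjusted p = 0.441) and -0.53 ± 0.167 in the mutant (95% interval -0.89 to -0.18, adjusted p = 0.363), and neither passed. Their difference was 0.11 ± 0.236 (95% interval -0.40 to 0.61, adjusted p = 0.973).

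Smad6 (ENSMUSG00000036867, deposited as chromosome 9, 63860358 to 63929341), the inhibitory SMAD that acts mainly on BMP receptors, was the fourth member whose groups did not overlap in the wild type. It was at 6.62, 7.35 and 8.08 FPKM in the controls and at 3.97, 4.64 and 4.56 FPKM with IFNα. The log2 fold change was -0.75 ± 0.157 (95% interval -1.08 to -0.41), or 59.6% of the control level, and did not pass in edgeR (adjusted p = 0.284), although DESeq2 called it. In the mutant it was at 6.27, 6.19 and 5.07 FPKM in the controls and at 5.55, 4.09 and 4.08 FPKM with IFNα. There mutant IFNα 1 lay above mutant control 3, so the groups overlapped, and the change of -0.37 ± 0.157 (95% interval -0.71 to -0.04) did not pass (adjusted p = 0.446).

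**Figure D1:**
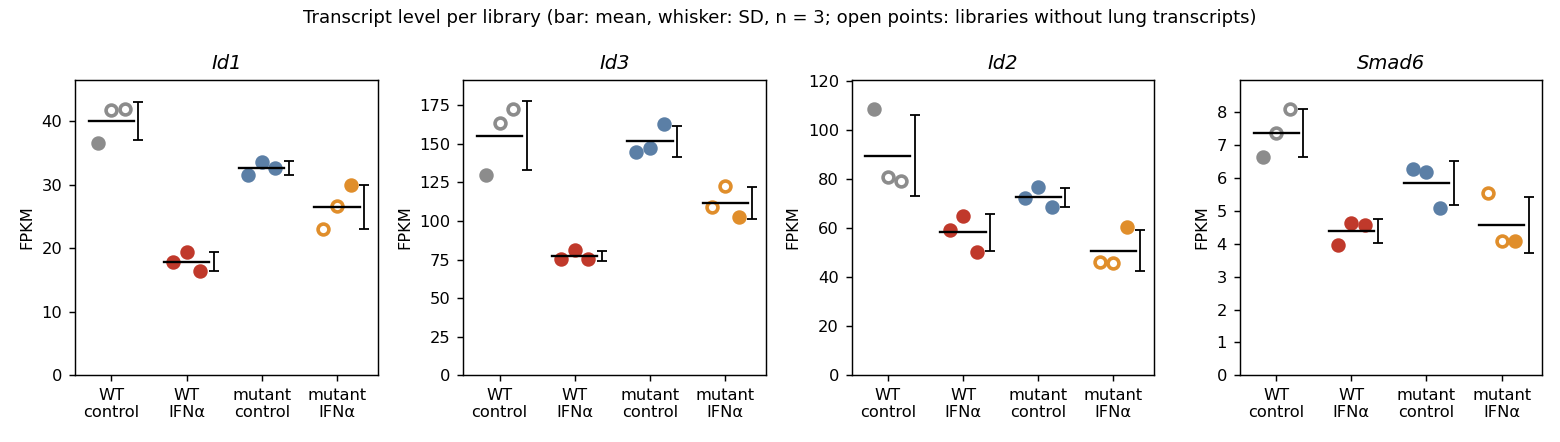
FPKM of Id1, Id3, Id2 and Smad6 in each of the 12 libraries, by group (points; horizontal bar, mean; whisker, SD, n = 3; open points, the 4 libraries without lung transcripts). In the wild type every IFNα library lies below every control for all 4 genes, and in the mutant this holds for Id1, Id3 and Id2 but not for Smad6.

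Over the members, the 4 genes with non-overlapping, lower IFNα libraries in the wild type (Id1, Id2, Id3 and Smad6) were 4 of 8, where 5.08% of all genes tested behaved so. By the test over all genes, 2 of the 8 passed, Id1 and Id3, both lower, where 0.0227% of all genes passed (4 of 17590). Since Id1 and Id3 were chosen on this comparison, nothing is read from those counts. At an unadjusted p under 0.05 there were 4, all lower, where 5.44% of all genes had such a p and 2.76% were lower with it. DESeq2 called 4 (Id1, Id2, Id3 and Smad6) and 0.37% of all genes. The limma fit on log2(FPKM + 1) called 2 of the 6 it could test, where 3 of its 10094 genes passed. Leaving out 1 library at a time, the count was 1 without wild-type control 2, 0 without wild-type IFNα 3 and 2 otherwise. Over all genes, 1 of 18293 passed without wild-type control 2 and 0 of 18267 without wild-type IFNα 3. The median log2 fold change of the 8 was -0.40, against 0.02 over all genes. In the mutant 3 of 8 (Id1, Id2 and Id3) had non-overlapping lower IFNα libraries, where 8.29% of all genes did. None of the 8 passed the test there, where 0.00569% of all genes passed (1 gene). At an unadjusted p under 0.05 there were 4 (Id1, Id2, Id3 and Smad6), all lower, the 4 that also had such a p in the wild type, where 10.3% of all genes had one and 4.62% were lower with it. DESeq2 called 1 (Id3) and 0.79% of all genes, and limma called 0 members and 3 of 10094 genes. Here DESeq2 gave no adjusted p to 2 of the 8, and its share counts every such gene as not called. The median of the members was -0.17, against -0.01 over all genes. The genes were chosen with earlier results of these data known, so the mutant counts are a description too.

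The IFNα effect on Id1 was smaller in the mutant than in the wild type by 0.86 ± 0.174 on the log2 scale (95% interval 0.48 to 1.23), and that on Id3 by 0.55 ± 0.169 (95% interval 0.18 to 0.91). Neither difference passed the adjustment over all genes (adjusted p = 0.916 for both), and of the 17590 genes 0% did. At an unadjusted p under 0.05 these were the 2 members of 8, where 5.17% of all genes had such a p. DESeq2 called Id1 and 0.0796% of all genes, and limma called no member and 0 of 10094 genes. The differences contain the comparison that chose Id1 and Id3, so they describe these libraries. For Smad6 the difference was 0.37 ± 0.222 (95% interval -0.10 to 0.85, adjusted p = 0.916), an interval that holds both no difference and one as large as the whole wild-type change. With a term for lung transcripts over all 12 libraries, the Id1 difference was 0.99 ± 0.242 (edgeR adjusted p = 0.562). Libraries with lung transcripts are spread over the groups in the pattern of the interaction, so this fit can only partly separate them. The Id3 difference fell to 0.26 ± 0.217 (adjusted p = 0.824) with that term. Among libraries with lung transcripts alone they were 0.98 for Id1 and 0.25 for Id3.

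**Figure D2:**
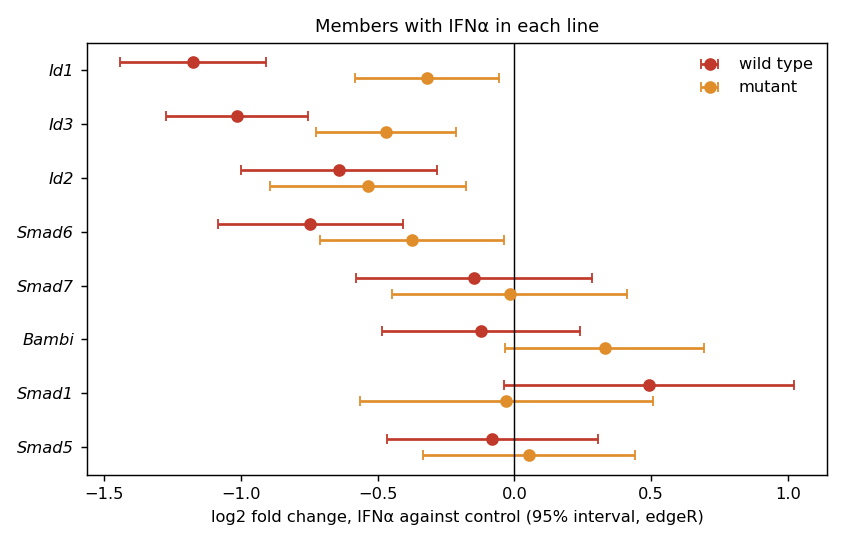
Log2 fold change of the 8 tested members with IFNα, for each line (points, edgeR estimates; bars, 95% intervals). Id1, Id3, Id2 and Smad6 lie below 0 in both lines, from -1.17 for Id1 in the wild type to -0.32 for Id1 in the mutant, and the intervals of Smad7, Bambi, Smad1 and Smad5 all reach across 0.

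Transcripts of other cell types moved with these groups. In the wild type the summed endothelial markers were at 23.7 to 30.1 CPM in the controls and at 33.4 to 34.2 CPM with IFNα, thus higher in the libraries where Id1, Id3, Id2 and Smad6 were lower. In the mutant they were at 31.6 to 35.4 CPM in the controls and at 31.6 to 49.0 CPM with IFNα. Most of that sum was Egfl7, at 7.03 FPKM over the 12 libraries and above 0 in each, while Cldn5 averaged 0.511 FPKM, Pecam1 0.214 FPKM and Cdh5 0.128 FPKM. The 8 fibroblast markers summed to 39.7 to 40.9 CPM in the wild-type controls, the library with lung transcripts included, and to 62.3 to 70.8 CPM with IFNα. Of the 7 tested, 3 had an unadjusted p under 0.05 there, all higher, where 5.44% of all genes had such a p in either direction. Among libraries with lung transcripts alone that gap rests on 1 wild-type control, at 40.9 CPM. Over all 8 libraries with lung transcripts the fibroblast sum ran from 40.4 to 81.2 CPM. In the mutant they summed to 40.4 to 76.3 CPM in the controls and to 34.9 to 81.2 CPM with IFNα. The 8 leukocyte markers were at 47.2 to 51.8 CPM in the wild-type controls and at 38.0 to 46.5 CPM with IFNα, and at 56.7 to 66.1 and 48.4 to 63.9 CPM in the mutant. The part of the fibroblast and leukocyte transcripts in the Id and Smad6 values was not tested. Among libraries with lung transcripts alone, wild-type control 1 was at 36.6 FPKM of Id1 against 16.4 to 19.4 FPKM with IFNα. In a fit on those 8 libraries the wild-type control and mutant IFNα arms have 1 library each. These arms borrow their spread from the rest, so the adjusted p-values of this fit are not given. In the wild type it gave -1.11 ± 0.147 for Id1, -0.82 ± 0.14 for Id3, -0.97 ± 0.15 for Id2 and -0.66 ± 0.199 for Smad6. A term for lung transcripts over all 12 libraries gave -1.25 ± 0.151 for Id1 (adjusted p = 0.0219) and -0.87 ± 0.132 for Id3 (adjusted p = 0.0891). That term is set only within the wild-type control and mutant IFNα groups, where 1 of 3 libraries each held lung transcripts. The p-values of this fit therefore also rest on few libraries. With that term Id2 was at -0.94 ± 0.139 (adjusted p = 0.0891) in wild-type cells, against -0.23 ± 0.144 (adjusted p = 0.566) in mutant cells. The interaction for Id2 in that fit was 0.71 ± 0.228 (adjusted p = 0.651). In the mutant, the fit on the 8 libraries gave -0.13 ± 0.156 for Id1, -0.57 ± 0.151 for Id3, -0.27 ± 0.161 for Id2 and -0.52 ± 0.213 for Smad6. The part of the lung transcripts in these values was not tested.

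For Bambi, Smad7, Smad1 and Smad5 the IFNα libraries overlapped the controls in both lines, and none of the 4 passed. Bambi (ENSMUSG00000024232), a decoy receptor that lacks the kinase domain, was at 8.01, 8.26 and 9.87 FPKM in the wild-type controls and at 9.80, 7.76 and 6.78 FPKM with IFNα. The groups overlapped, with a log2 fold change of -0.12 ± 0.169 (95% interval -0.49 to 0.24, adjusted p = 1). In the mutant it was at 7.29, 5.59 and 4.92 FPKM in the controls and at 8.38, 8.76 and 5.62 FPKM with IFNα. The mutant value was 0.33 ± 0.17 (95% interval -0.03 to 0.69), and did not pass (adjusted p = 0.522). Among libraries with lung transcripts alone it turned to -0.08 ± 0.213.

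Smad7 (ENSMUSG00000025880), the inhibitory SMAD that acts on both the BMP and the TGF-beta branch, was scarce. It was at 0.576, 0.55 and 0.808 FPKM in the wild-type controls and at 0.759, 0.504 and 0.501 FPKM with IFNα, and the highest library of each group stood apart from its other 2. The change was -0.15 ± 0.201 (95% interval -0.58 to 0.28, adjusted p = 1). In the mutant the controls were at 0.677 to 0.763 FPKM and the IFNα libraries at 0.594 to 0.838 FPKM, with a change of -0.02 ± 0.201 (95% interval -0.45 to 0.41, adjusted p = 0.983). Both intervals leave out a fall as large as that of Id1 in the wild type.

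The receptor-activated SMADs were also scarce. Smad1 (ENSMUSG00000031681, deposited as chromosome 8, 80065024 to 80126147) was at 0.333, 0.353 and 0.489 FPKM in the wild-type controls and at 0.838, 0.402 and 0.451 FPKM with IFNα. The first IFNα library lay far above all others, and the groups overlapped. The change of 0.49 ± 0.248 (95% interval -0.04 to 1.02, adjusted p = 0.95) was 0.16 in the lowest of the fits that leave out 1 library. In the mutant it was -0.03 ± 0.25 (adjusted p = 0.979). Smad5 (ENSMUSG00000021540, deposited as chromosome 13, 56850823 to 56890190) was at 1.83, 1.57 and 2.08 FPKM in the wild-type controls and at 2.24, 1.50 and 1.53 FPKM with IFNα, with a change of -0.08 ± 0.179 (adjusted p = 1). In the mutant it ranged from 1.23 to 1.54 FPKM in the controls and from 1.14 to 1.87 FPKM with IFNα, with a change of 0.05 ± 0.18 (adjusted p = 0.943).

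**Figure D3:**
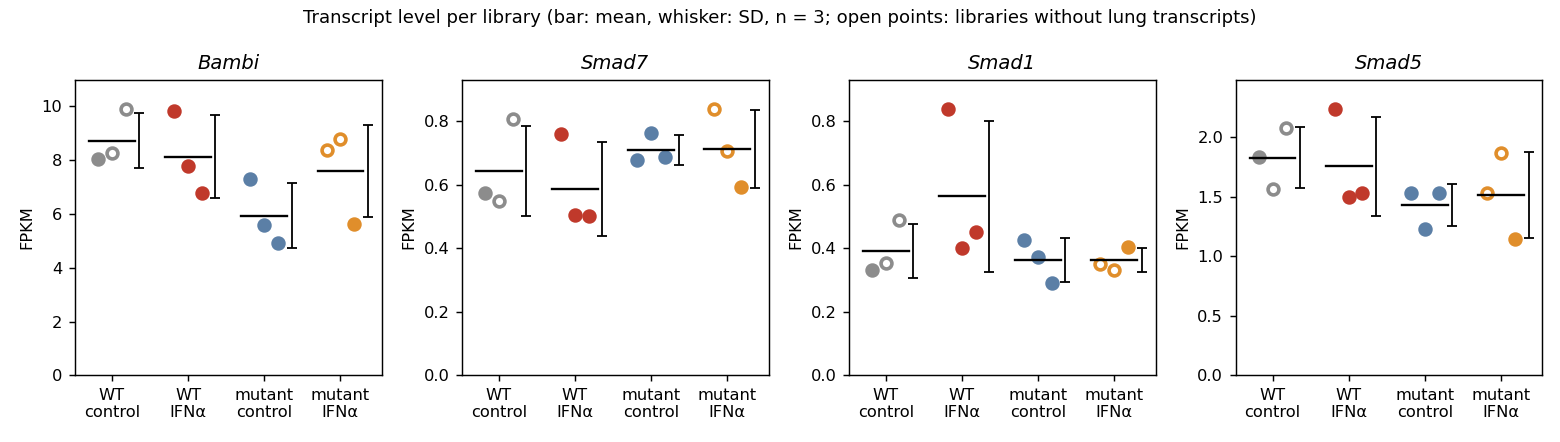
FPKM of Bambi, Smad7, Smad1 and Smad5 in each library, by group (points; horizontal bar, mean; whisker, SD, n = 3; open points, libraries without lung transcripts). The IFNα libraries overlap the controls of their line in all 4 panels.

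Between the lines without IFNα none of the 8 members passed the test, where 0.165% of all genes did (29). At an unadjusted p under 0.05 there was 1 (Bambi), a share near the 10.7% of all genes. DESeq2 called none of them, against 1.36% of all genes, and limma none, against 35 of 10094 genes. In FPKM, 5 of the 8 (Id1, Id2, Smad6, Bambi and Smad5) had mutant libraries that all lay below the wild type, where 12.7% of all genes did, but those of Id2 and Smad5 overlapped in CPM. Bambi was lower in the mutant by every library, at 5.93 ± 1.22 against 8.72 ± 1.01 FPKM, with a log2 fold change of -0.45 ± 0.17 (95% interval -0.82 to -0.09, adjusted p = 0.372). Id1 was at 32.6 ± 1.10 FPKM in the mutant control and 40.1 ± 3.00 FPKM in the wild-type control, a difference of -0.20 ± 0.122 after TMM scaling. Id3 was nearly level, at 152 ± 9.93 and 155 ± 22.4 FPKM, a difference of 0.07 ± 0.119 that turned to -0.03 with library totals as the scaling. That scaling moves the median of all genes to -0.09 in this comparison. The median of the members was -0.21 with TMM, against 0.00 over all genes.

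With IFNα, Id1 and Id3 were higher in the mutant in every library. Id1 was at 26.6 ± 3.49 against 17.9 ± 1.50 FPKM, a log2 fold change of 0.66 ± 0.123, and Id3 at 111 ± 10.4 against 77.2 ± 3.41 FPKM, a log2 fold change of 0.62 ± 0.12. These 2 of 8 members passed, where 0.597% of all genes did (105), but the wild-type IFNα libraries are those on which the genes were chosen, and nothing is read from the count. Neither passed with library totals as the scaling or in limma. With a term for lung transcripts, which few libraries set, Id1 passed (0.72 ± 0.148, adjusted p = 0.0492) and Id3 did not (0.47 ± 0.132, adjusted p = 0.11). Leaving out 1 library, both passed only without 1 of the 3 wild-type controls, and 1 passed without mutant IFNα 1 or 3. None passed without mutant IFNα 2, any mutant control or any wild-type IFNα library. Over all genes, 74 to 111 passed without a wild-type control and 21 to 27 without a wild-type IFNα library. Smad6 was at 4.57 ± 0.848 against 4.39 ± 0.366 FPKM (0.14 ± 0.157, 95% interval -0.19 to 0.48, adjusted p = 0.744). For Id2 the value was -0.11 ± 0.167 (95% interval -0.46 to 0.25, adjusted p = 0.839). Smad7 gave 0.38 ± 0.201 (adjusted p = 0.43) and Smad1 -0.51 ± 0.248 (adjusted p = 0.384). The median over the members was 0.07, against -0.01 over all genes.

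Summed over Id1 to Id4, the Id pool was at 285 ± 9.35 FPKM in the wild-type control and 153 ± 11.9 FPKM with IFNα, and at 257 ± 7.91 and 189 ± 9.22 FPKM in the mutant. Id3 made up 54.4% ± 6.23 of the pool in the wild-type control and 50.5% ± 2.16 with IFNα, and 59.0% ± 2.36 and 59.1% ± 5.22 in the mutant. The E proteins that Ids bind, Tcf3, Tcf4 and Tcf12, summed to 14.7 ± 2.31 and 17.8 ± 2.47 FPKM in the wild type and to 12.9 ± 1.17 and 18.0 ± 2.36 FPKM in the mutant, without and with IFNα. Id transcripts thus outnumbered E-protein transcripts per length in every group: the ratio was 19.7 ± 2.67 in the wild-type control, 8.70 ± 1.15 with IFNα, 20.0 ± 1.74 in the mutant control and 10.7 ± 1.91 in the mutant with IFNα. In both lines every IFNα library had a lower ratio than every control. The Id values that chose the genes enter this ratio, so it is a description. The ratio also depends on the lengths used for FPKM, which were not checked. Over the 12 libraries Tcf4 had 3728 counts at a mean of 0.151 FPKM, where Smad1 had 2350 counts at 0.42 FPKM. The E-protein sum may therefore be too low and the ratio too high. Tcf3 carried most of the E-protein sum, with a log2 fold change with IFNα of 0.29 ± 0.139 (adjusted p = 0.929) in wild-type cells and 0.51 ± 0.139 (adjusted p = 0.305) in mutant cells.

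The rest of the pathway was read from 9 lists of its parts. With IFNα in the wild type none of their genes passed in edgeR, DESeq2 or limma. An unadjusted p under 0.05, which 5.44% of all genes had, was found there for 3 of 8 other BMP-SMAD targets, 2 of 10 antagonists, 2 of 15 SMAD2/3 targets, 1 of 18 SMADs and cofactors, 1 of 15 Id partners and 1 of 16 serum-response genes. Nog and Smad9 each stand on 2 of these lists and are counted in both. In the mutant none passed in edgeR or limma, and DESeq2 called 1 gene each among the receptors, the Id partners and the serum-response genes. DESeq2 gave no adjusted p to 9 of 13 receptors, 7 of 15 Id partners and 8 of 16 serum-response genes there. An unadjusted p under 0.05, which 10.3% of all genes had in the mutant, was found there for 2 receptors and 2 Id partners. The antagonists, SMADs and cofactors, BMP-SMAD targets, SMAD2/3 targets and serum-response genes had 1 such gene each. The BMP and TGF-beta ligands had none in either line.

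Of 14 BMP ligands 3 passed the filter on low counts, and the most abundant, Gdf7, averaged 0.308 FPKM, followed by Bmp4 at 0.0567 and Bmp7 at 0.0336 FPKM. Transforming growth factor beta (TGF-beta) and activin ligands were better represented, with 7 of 12 tested, led by Tgfb3, Tgfb1 and Gdf11. Of 16 receptors and co-receptors 13 were tested. The most abundant were Eng, the co-receptor endoglin, at 58.3 FPKM, Acvrl1, the ALK1 receptor that binds BMP9 and BMP10, at 16.2 FPKM, and Rgma, a BMP co-receptor, at 1.95 FPKM. Eng and Acvrl1 are best known from endothelium. Over the 12 libraries Eng was at 46.8 FPKM or more and Acvrl1 at 14.1 FPKM or more, the libraries with Cdh5 and Cldn5 at 0 included. The source of the Eng and Acvrl1 transcripts was not tested. Their IFNα log2 fold changes were 0.03 ± 0.168 and -0.14 ± 0.123 in the wild type and 0.31 ± 0.169 and -0.01 ± 0.124 in the mutant, and none passed (adjusted p of at least 0.542). Rgma had 0.78 ± 0.203 in the mutant (adjusted p = 0.291) and 0.25 ± 0.201 in the wild type.

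Of the other BMP-SMAD target genes 8 of 15 were tested and none passed in any comparison. With IFNα in the wild type 3 of the 8 had an unadjusted p under 0.05, all lower, where 2.76% of all genes were lower with such a p: Atoh8, Nog and Smad9, the last named after its values were seen. Atoh8, a helix-loop-helix factor, was at 15.8 ± 1.12 FPKM in the control and 12.3 ± 0.694 FPKM with IFNα, without overlap (-0.38 ± 0.101, adjusted p = 0.499). Nog, which encodes the secreted BMP antagonist noggin, was at 1.32 ± 0.262 and 0.489 ± 0.176 FPKM, also without overlap (-1.45 ± 0.363, adjusted p = 0.441). Smad9, a BMP-activated SMAD, was at 0.491 ± 0.1 and 0.29 ± 0.0894 FPKM (-0.78 ± 0.295, adjusted p = 0.808). In the mutant Nog gave -0.90 ± 0.368 (adjusted p = 0.434), Smad9 -0.35 ± 0.296 and Atoh8 -0.12 ± 0.101. Tbx2, the most abundant gene of the list, was level at 21.1 ± 1.57 and 20.9 ± 1.81 FPKM in the wild type. In the wild type 4 of the 8 lay above 0 and 4 below, with a median of 0.16 against 0.02 over all genes. In the mutant 6 of the 8 lay below 0, with a median of -0.30 against -0.01.

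Of 18 other SMADs and SMAD cofactors all were tested and none passed, with medians of 0.03 and 0.08 for IFNα in the wild type and mutant. Its most abundant genes were Ctdsp1, Tgif2 and Tob1. Of 15 secreted antagonists 10 were tested and none passed, and the most abundant, Dand5, Twsg1 and Fstl3, had IFNα log2 fold changes between -0.27 and 0.12 in the wild type. Of 16 TGF-beta targets of SMAD2 and SMAD3, 15 were tested. Cdkn1a, the cell cycle inhibitor p21 and also a gene that Id proteins act on, was at 231 ± 28.8 FPKM in the wild-type control and 214 ± 10.5 FPKM with IFNα (-0.12 ± 0.117, adjusted p = 1). Junb was the 1 pathway gene outside the members to pass in any comparison: with IFNα it was higher in the mutant, at 31.1 ± 2.36 against 22.7 ± 1.47 FPKM (0.55 ± 0.11, adjusted p = 0.0371). It passed in none of the comparisons of IFNα with control. Of 16 serum-response genes, all tested, Ier3, Junb and Srf were the most abundant, and none passed with IFNα. Of 17 partners of Id proteins and genes they act on 15 were tested, none passed, and their median with IFNα was -0.01 for wild-type and -0.07 for mutant cells.

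**Figure D4:**
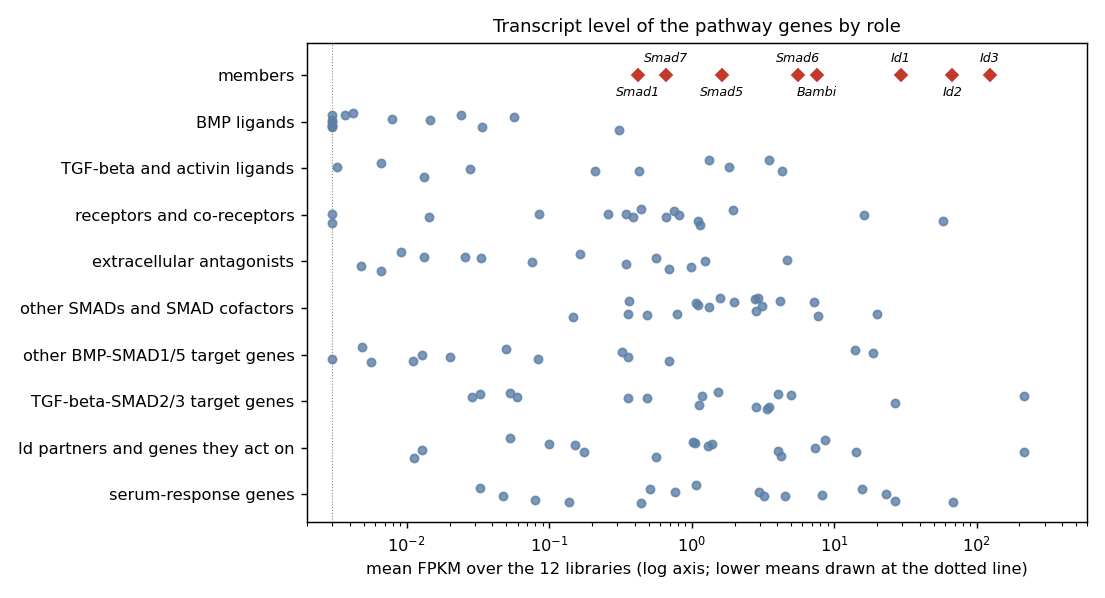
Mean FPKM over the 12 libraries (log axis) of the 8 tested members (diamonds) and of every gene of 9 pathway lists (points; means too low for the axis are drawn at the dotted line). Id1, Id2 and Id3 lie at 29.3, 67.8 and 124 FPKM, Cdkn1a, Eng and Ier3 are the pathway genes drawn to the right of Id1, and the BMP ligands reach at most 0.308 FPKM.

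Over the 12 libraries the genes whose log2(FPKM + 1) followed Id1 most closely, among 4781 with a mean of at least 5 FPKM, were Lims2 (Pearson r = 0.95), H2bc4 (0.94), Id3 (0.93), H2bc8 (0.90) and Borcs8 (0.90). For Id3 they were Asl (0.97), Dhrs11 (0.94), Hspb8 (0.94), Id1 (0.93) and Eif2b2 (0.92). The histone genes H2bc4 and H2bc8 have near-identical copies between which reads may be split, so their values are uncertain. Smad6 was 38th in likeness to Id1 (0.76) and 77th in likeness to Id3 (0.75), Id2 was 80th (0.68) and 320th (0.53), and Bambi was 2598th for Id1 with r of -0.10. The 12 points share 4 groups and their libraries, so these values describe the pattern and carry no p.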

How the data were processed

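RNA of 12 B16F10 libraries was measured, poly(A)-selected, stranded by dUTP and read as pairs per the labels' protocols. Without giving roles, the submitters' processing notes list HISAT2 2.0.4 and cutadapt 1.9, StringTie 1.3.4d and UMI-tools, edgeR and DESeq2, and the build GRCm38. The authors deposited 1 table of unscaled whole-number counts and of FPKM per gene. Of counts from 1 to 30, 33.6% were multiples of 4 (23.3% of whole numbers are), so a count may not be 1 fragment. How the counts were made was not checked, and the count tests take them as deposited. Deposited gene starts equal those of GRCm38 for 1 of 9 members, so coordinates are as deposited, of a build not given in the sources used here, and were not converted. RefSeq promoter coordinates are GRCm38.p6.

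Counts were tested with edgeR 4.0.16 (R 4.3.3; TMM, default low-count filter, quasi-likelihood, 4 group means over 12 libraries). The common biological coefficient of variation was 28.9%. Tests were two-sided, Benjamini-Hochberg adjusted over 17590 genes in each of 5 comparisons, with a threshold of 0.05. Alternatives were DESeq2 1.42.0, other scalings and filters, limma 3.58.1 on log2(FPKM + 1) over 10094 genes, a replicate block and leaving out each library. Code was tested on simulated data. The members and gene lists were chosen with earlier results of these data known. Named genes were all members, of each list those passing and the 3 most abundant, the 5 most like Id1 and Id3, and Irf7 and Irf1.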

Additional observations from a re-analysis of the deposited data

How the results depend on the processing

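Of 915 values of single genes compared with the main setting, 818 kept their direction and side of the threshold, 34 lost their call, 4 gained one and 59 changed sign. For IFNα in the wild type 4 genes passed in the main setting, 2 of them members. The 2 became 4 in DESeq2 (65 genes called in all), 1 with only the groups compared (2) and 1 with a term for lung transcripts (1). Leaving out 1 library gave 0 to 2: 1 without wild-type control 2 (1 gene in all) and 0 without wild-type IFNα 3 (0 in all). DESeq2 called 1 member in the mutant and 1 in the interaction, against 0. For the mutant against the wild type with IFNα, 105 genes passed in the main setting, 2 of them members. Calls over all genes are given in brackets. The 2 became 0 with library totals (49), only the groups compared (14), or limma with a pseudocount of 1 (56) or 0.1 (59). There was 1 without a filter (70) and 1 with the lung term (100). Leaving out 1 library gave 0 to 2. It gave 1 without mutant IFNα 1 (59) or 3 (112). It gave 0 without mutant IFNα 2 (43), any mutant control (63 to 66) or any wild-type IFNα library (21 to 27). The fit on lung libraries alone has arms of 1 library, so its calls are not counted. The lung term is set only within the wild-type control and mutant IFNα groups. The lung alternatives were chosen after seeing the data. The cause of these changes was not tested.

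Some log2 values changed sign, none of them past the threshold in the main setting. The values furthest from 0 in that setting were those of Bambi, at 0.33 with IFNα in the mutant and 0.45 in the interaction. With IFNα in the mutant, library totals gave 0.014 for Smad7 and 0.0051 for Smad1. Without IFNα, the mutant against the wild type gave -0.029 for Id3 with library totals and -0.026 in limma with either pseudocount. For Smad1 it gave -0.10 with library totals, -0.0093 without a filter and -0.011 with the lung term. With IFNα, that difference for Bambi was -0.085 with library totals, -0.046 at a mean FPKM of at least 5, -0.00061 with only the groups compared, and -0.094 and -0.11 in limma. The lung term turned Smad7 to 0.012, Bambi to 0.087 and Smad5 to 0.047 for IFNα in the wild type, Smad5 to -0.093 in the mutant, Id2 to 0.20 and Bambi to -0.23 between the lines with IFNα, and Smad7 to -0.20 and Smad5 to -0.14 in the interaction. In lung libraries alone, IFNα in the mutant gave -0.084 for Bambi, 0.14 for Smad1 and -0.33 for Smad5, the lines with IFNα gave 0.16 for Id2, -0.0086 for Smad6 and -0.42 for Bambi, and the interaction gave -0.21 for Smad7, -0.015 for Bambi and -0.18 for Smad5.

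Leaving out 1 library, IFNα in the mutant ranged from -0.16 to 0.091 for Smad7, -0.16 to 0.092 for Smad1 and -0.11 to 0.21 for Smad5. Between the lines without IFNα the ranges were -0.018 to 0.14 for Id3 and -0.12 to 0.14 for Smad1. With IFNα they were -0.26 to 0.014 for Id2, -0.026 to 0.23 for Smad6, -0.099 to 0.17 for Bambi and -0.27 to 0.048 for Smad5. In the interaction they were -0.090 to 0.25 for Id2, -0.0082 to 0.31 for Smad7 and -0.029 to 0.30 for Smad5.

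Deviations of same-numbered libraries correlated at -0.063 to 0.052, so no pairing by number is visible. With 3 libraries per group this cannot show that same-numbered libraries were prepared apart. With the replicate block, the numbers of members called were as without it, while the calls over all genes went from 4 to 2, 1 to 0, 29 to 17, 105 to 59 and 0 to 0 in the 5 comparisons. The block gave -0.0027 for Smad1 without IFNα and -0.0070 for Bambi with it, both between the lines. The fits with 1 library in an arm assume that it varies like the rest. Id4, at 0 in 9 of the 12 libraries, could not be tested at this depth.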
